A study of Mus musculus with 12 samples.

Results

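The tumor suppressor p53 is encoded in the mouse by *Trp53*, and 10 genes of its pathway were examined here by symbol: *Trp53* itself and 9 of its transcriptional targets, *Cdkn1a*, *Mdm2*, *Ccng1*, *Trp53inp1*, *Bax*, *Bbc3*, *Phlda3*, *Sesn2*, and the long noncoding RNA *Trp53cor1*. All 10 were found among the 51490 genes of the RNA-seq table, and all 10 passed the filter for low counts that left 15037 genes for testing. The members were chosen by name, with earlier results of these data known.

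The samples were iMEPM cells, an immortalized line of mouse embryonic palatal mesenchyme, which is the connective tissue that fills the growing palate. Scramble cells carried an integrated control shRNA with no intended target, and shSrsf3 cells carried one directed against *Srsf3*, a gene for an RNA-binding SR protein that takes part in splicing. Each line was left without ligand (-PDGF-AA) or given 10 ng/mL PDGF-AA, a growth factor that activates the receptor PDGFRα, for 1 hr (+PDGF-AA), with 3 biological replicates in each of these 4 groups. Cells of all 4 groups, controls included, descend from a *Cdkn2a*-/- embryo. *Cdkn2a* encodes p19Arf, an inhibitor of Mdm2, and the CDK inhibitor p16, so by genotype these cells lack this upstream regulator of the pathway. There was 1 cell line for each shRNA, so that an effect of the *Srsf3* knockdown cannot be told apart from a difference between the lines, and p-values measure the spread between cultures of these lines.

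p53 is a transcription factor that is kept at a low level by Mdm2, a ubiquitin ligase that marks it for degradation and is itself a p53 target. DNA damage and other stresses stabilize the protein, which then binds response elements in its target genes and induces cell cycle arrest by way of p21, the product of *Cdkn1a*, or apoptosis by way of Bax and Puma, the product of *Bbc3*. Because p53 is mainly controlled as a protein, the level of its mRNA is not a measure of its activity.

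To show where the members carry the sequence that p53 recognizes, the window of 3 kb on each side of the outermost annotated start of each tested gene (GENCODE M39 on GRCm39) was searched for the p53 response element, a palindrome of 20 bases made of 2 abutting half-sites of 10 bases. The core C and core G of each half-site had to match, and at most 2 other bases could differ. A match was found for 4 of the 10 members, against 6.64% of 14705 such windows, and with at most 1 difference for 3 members, against 1.14%. No member had a match without a difference, against 0.17% of windows. The matches are shown in capitals on the strand of the gene, each with 5 neighboring bases on either side.

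Cdkn1a, chr17:29309902-29309921: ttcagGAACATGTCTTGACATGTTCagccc
Ccng1, chr11:40646289-40646308: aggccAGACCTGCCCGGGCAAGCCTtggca
Ccng1, chr11:40645763-40645782: ccggaACGCAAGCCCGGGCTAGTCTgcgcc
Trp53cor1, chr17:29298013-29298032: ctgccGGCCTTGCCCGGGCTTGCCTtcggt
Bax, chr7:45115998-45116017: cccccGGGCAGGCCCGGGCTTGTCGctggc

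The center of the *Cdkn1a* match lay 25 bases before the outermost start of the gene, outside of it, and other transcripts of this gene start further downstream. For *Ccng1*, 1 match lay 151 bases before the start and the other 375 bases after it, within the span of 21 of its 22 transcripts and in no exon. The *Trp53cor1* match lay 261 bases after the start in an exon of 6 of its 21 transcripts, and the *Bax* match lay 317 bases after the start in an exon of 1 of its 16 transcripts. The *Bax* match differed at 2 bases and the other 4 matches at 1. A match is a description of sequence only. Binding of p53 was not measured in these samples, and the other members can have elements elsewhere or of another form.

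Total counts were between 30958966 and 76123359 per sample, and the members had between 57 (*Trp53cor1*) and 15155 counts (*Cdkn1a*) in a sample. Values are given as CPM, which here are counts relative to library size after TMM scaling. Differences with an adjusted p of 0.05 or less in edgeR's quasi-likelihood test, adjusted over all tested genes, are referred to as called. The first principal component (43.9% of variance) separated the shRNA lines. The second (10.6%) set 3 scramble libraries, -PDGF-AA replicates 1 and 2 and +PDGF-AA replicate 2, apart from the other 3 scramble libraries. These are the libraries for which the study's methods list the lowest shares of mapped reads. Without them, the unstimulated scramble group holds 1 sample, replicate 3, which was then assumed to vary like the samples of the other groups. Values from that fit, or ranges over alternatives that include it, are given beside called results that moved. Others are given with the dependence on processing. shSrsf3 +PDGF-AA replicate 3 stood apart on the third component (7.56%). All 8 palatal mesenchyme markers reached 1 CPM in at least 1 sample, although *Msx1* (0.547 to 1.81 CPM) and *Osr2* (2.30 to 5.91 CPM) were low. *Pdgfra*, the gene of the receptor PDGFRα, was called lower in shSrsf3 cells. Its log2 fold change was -0.53 (adjusted p = 5.33e-06) without and -0.36 (adjusted p = 1.85e-04) with ligand in edgeR's test. *Vim* was higher, at 5070 to 5224 CPM in shSrsf3 and 4216 to 4457 CPM in scramble samples. Markers of other cell types were low except for *Tubb3* (neural, 17.3 to 29.2 CPM) and *Acta1* (skeletal muscle, 23.3 to 30.9 CPM). Summed levels differed between the lines for palatal mesenchyme, epithelial, endothelial, and neural and glial markers. In the same way, 1 CPM was reached by 1 of 4 epithelial, 1 of 3 endothelial, 1 of 3 immune, 2 of 3 neural and glial, and 1 of 3 skeletal muscle markers. The summed level was 0.510 to 0.998 CPM in shSrsf3 and 2.06 to 3.30 CPM in scramble samples for epithelium, 1.61 to 2.03 and 0.390 to 1.01 CPM for endothelium, and 20.0 to 24.7 and 28.2 to 31.5 CPM for neural and glial cells. For palatal mesenchyme the summed level was 31172 to 33449 CPM in shSrsf3 and 34911 to 36662 CPM in scramble samples, most of it *Col1a1* and *Col1a2*. Over all samples it was 0.814 to 1.68 CPM for immune cells and 23.3 to 30.9 CPM for muscle. *Tie1* (endothelium), *Adgre1* (macrophages), *Sox10* (glia), and *Myod1* (muscle) were at 0 in every sample. The part of these differences in the results was not tested, and in bulk RNA fewer cells of a type and less RNA per cell cannot be told apart.

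*Srsf3*, the target of the knockdown, was at 207, 199, and 212 CPM in scramble -PDGF-AA samples and 162, 164, and 161 CPM in shSrsf3 -PDGF-AA samples. With ligand it was at 221, 215, and 231 CPM in scramble and 164, 161, and 169.5 CPM in shSrsf3 samples. The mRNA was thus lower in all shSrsf3 samples, with a log2 fold change of -0.34 (SE 0.0379, adjusted p = 7.95e-06) without and -0.43 (SE 0.0380, adjusted p = 9.54e-07) with ligand. By western blot, the study reported a larger decrease of Srsf3 protein in the shSrsf3 line. The transcripts of *Srsf3* share 12.4% of their 31-base sequences with those of other genes, chiefly the pseudogene *Srsf3-ps*, which had 4332 counts over all samples. *Cdkn2a* was at 2.99 to 3.59 CPM (96 to 231 counts) in the 12 samples, and the sources used here do not state which part of the gene the deletion removes. Of the genes related to *Trp53*, *Trp63* was at 2.08 to 3.49 CPM and *Trp73* had 0 to 2 counts per sample and was not tested.

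Differences between the shSrsf3 and scramble lines were examined first. Without ligand, 6 of the 10 members differed between shSrsf3 and scramble samples, *Bax* being higher and *Trp53*, *Ccng1*, *Trp53inp1*, *Bbc3*, and *Phlda3* lower. With 45.9% of all tested genes called in this comparison, 22.2% higher and 23.7% lower, 6 of 10 is near the background. With ligand, 5 members differed, *Cdkn1a* being higher and *Trp53*, *Ccng1*, *Trp53inp1*, and *Phlda3* lower, against 41.0% of all genes, 20.3% higher and 20.7% lower. The 4 that were lower in both comparisons are set against 16.9% of all genes that were. The median log2 fold change of the members was -0.06 without and 0.01 with ligand, beside -0.02 and -0.01 over all tested genes. No member reached a 2-fold change, a size that 5.75% and 5.42% of all genes reached when called. The samples of the lines did not overlap for 7 members without ligand, against 53.3% of all genes, and for 6 with ligand, against 52.6%. The members changed in both directions and are described by their roles.

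**Figure D1:**
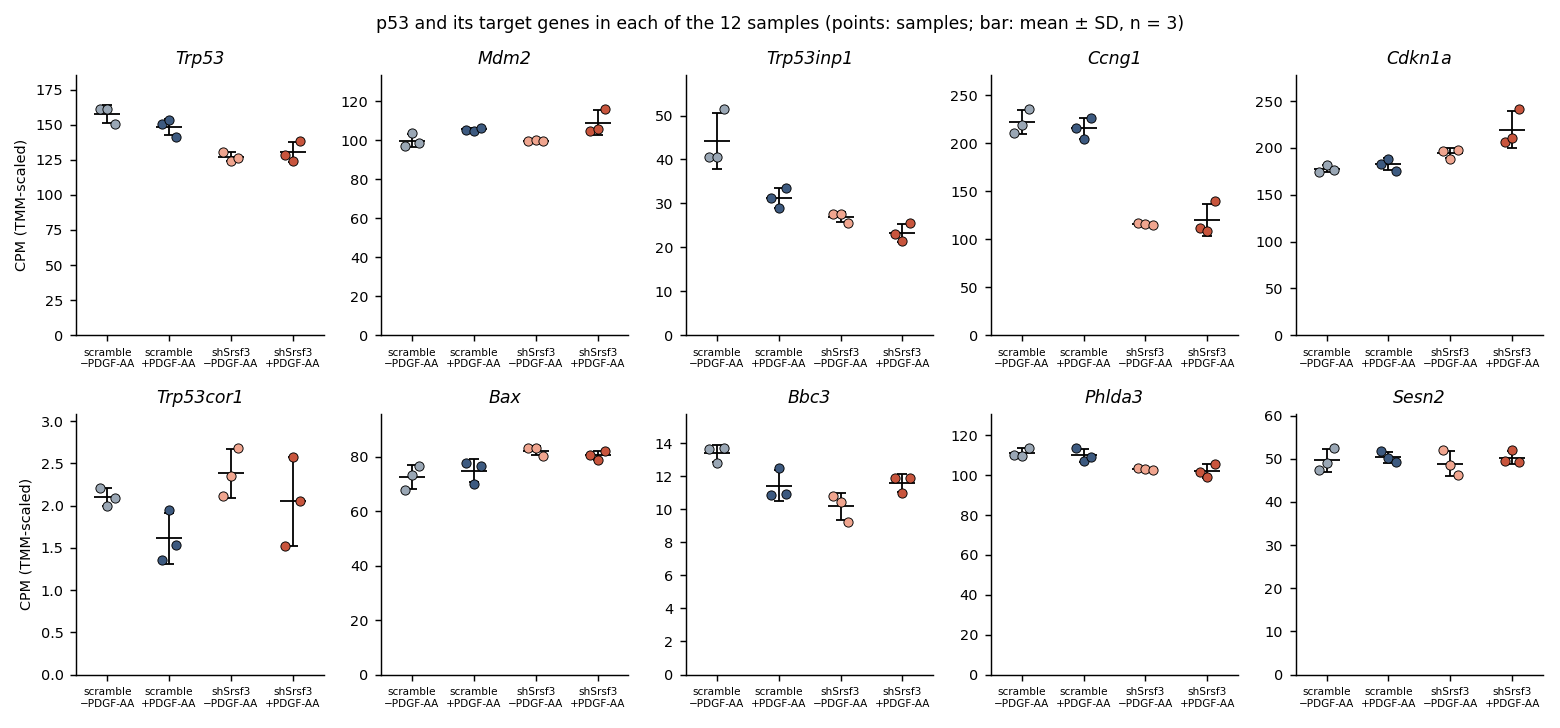
CPM of the 10 members in each of the 12 samples, as points, with the mean ± SD of each group (n = 3) as bars. Each panel has its own linear axis from 0. *Ccng1* lies between 204 and 236 CPM in scramble and between 109 and 139 CPM in shSrsf3 samples, while *Mdm2* and *Sesn2* lie close together in all 4 groups.

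*Trp53*, on chromosome 11 (GRCm39, 69469669 to 69482701), had 162, 161, and 150.3 CPM in scramble -PDGF-AA samples and 131, 124, and 126 CPM in shSrsf3 -PDGF-AA samples. With ligand, it had 150.4, 153, and 142 CPM in scramble and 129, 124, and 138 CPM in shSrsf3 samples. Scramble samples were above shSrsf3 samples in both conditions with no overlap. In shSrsf3 cells, *Trp53* mRNA decreased by 19.3% without ligand (log2 fold change -0.31, SE 0.0469, adjusted p = 1.29e-04) and by 12.1% with ligand (-0.19, SE 0.0471, adjusted p = 0.00611). Over 20 alternatives, the fit without the 3 libraries of low mapping included, the value without ligand was between -0.33 and -0.24. The transcripts of *Trp53* share 5.44% of their 31-base sequences with those of other genes, chiefly the pseudogene *Trp53-ps*, which had 16 counts over all samples.

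The negative regulators of p53 that are also its targets gave different results. *Mdm2*, on chromosome 10 (117524780 to 117546730), had 97.3, 104, and 98.8 CPM in scramble and 99.5, 100.1, and 99.9 CPM in shSrsf3 -PDGF-AA samples. The +PDGF-AA values were 106, 105, and 107 CPM in scramble and 105, 106, and 116 CPM in shSrsf3 samples. The groups overlapped, and the log2 fold change was 0.00 without (95% interval -0.09 to 0.09) and 0.04 with ligand (-0.05 to 0.14), with adjusted p = 0.975 and 0.457. Both intervals lay within 0.14 of 0.

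*Ccng1* encodes cyclin G1, a p53 target that recruits a phosphatase to Mdm2, and is on chromosome 11 (40639377 to 40646148). It had 211, 219, and 236 CPM in scramble and 117, 116, and 115 CPM in shSrsf3 -PDGF-AA samples. The +PDGF-AA samples had 215, 204, and 226 CPM in scramble and 112, 109, and 139 CPM in shSrsf3 samples. The lines were far apart in both conditions, also for the highest shSrsf3 sample, +PDGF-AA replicate 3. The log2 fold change was -0.94 (SE 0.0770, adjusted p = 4.31e-07) without and -0.84 (SE 0.0772, adjusted p = 1.34e-06) with ligand, the largest changes of any member. Without the 3 libraries of low mapping, it was -1.03 in unstimulated cells, where scramble replicate 3 (236 CPM) is then the sole control sample.

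*Trp53inp1*, whose product is a stress-induced nuclear protein that promotes p53 activity and autophagy, is on chromosome 4 (11156412 to 11175230). It had 40.5, 40.6, and 51.6 CPM in scramble and 27.5, 27.5, and 25.5 CPM in shSrsf3 -PDGF-AA samples. In +PDGF-AA samples the values were 31.1, 29.1, and 33.6 CPM in scramble and 23.1, 21.4, and 25.5 CPM in shSrsf3 samples. Unstimulated scramble samples were the highest, stimulated scramble samples came next, and all shSrsf3 samples were below them. The log2 fold change between the lines was -0.72 (SE 0.0891, adjusted p = 2.05e-05) without and -0.42 (SE 0.0930, adjusted p = 0.00248) with ligand. Without the 3 libraries of low mapping, the value was -0.94 without ligand, where scramble replicate 3, the highest of its group, is then the sole control sample, and -0.48 (adjusted p = 6.62e-05) with ligand.

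*Cdkn1a*, the gene of the CDK inhibitor p21, is on chromosome 17 (29309936 to 29319701) and is the member most often read as a gauge of p53 activity. It had 174, 182, and 177 CPM in scramble and 196, 189, and 198 CPM in shSrsf3 -PDGF-AA samples. After stimulation the values were 183, 189, and 176 CPM in scramble and 207, 210.0, and 242 CPM in shSrsf3 samples. All shSrsf3 samples were above all scramble samples of the same condition, with replicate 3 the highest of the stimulated ones. The log2 fold change was 0.13 (SE 0.0535, adjusted p = 0.0639) without and 0.27 (SE 0.0535, adjusted p = 0.00120) with ligand, or a difference of 20.4% in the latter. The difference in unstimulated cells missed the threshold and was called in 7 of 20 alternatives. Leaving out shSrsf3 +PDGF-AA replicate 3 gave 0.20 (adjusted p = 0.00814) with ligand.

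*Trp53cor1*, or lincRNA-p21, is a noncoding RNA transcribed upstream of *Cdkn1a* in the opposite direction (chromosome 17, 29233594 to 29298284). In GENCODE M39 its outermost transcripts overlap *Srsf3* (29251321 to 29262347) on the other strand. Its values were 2.21, 2.00, and 2.09 CPM in scramble and 2.11, 2.35, and 2.68 CPM in shSrsf3 -PDGF-AA samples, and 1.36, 1.95, and 1.53 CPM in scramble and 1.52, 2.57, and 2.06 CPM in shSrsf3 +PDGF-AA samples. With 57 to 163 counts per sample the groups overlapped in both conditions. The log2 fold change was 0.17 (95% interval -0.23 to 0.57, adjusted p = 0.475) without and 0.34 (-0.08 to 0.76, adjusted p = 0.186) with ligand. Differences within these intervals are not excluded.

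Among the targets of apoptosis, *Bax* encodes a protein that permeabilizes the outer mitochondrial membrane (chromosome 7, 45111015 to 45116325). It had 67.9, 73.4, and 76.6 CPM in scramble and 83.3, 83.3, and 80.4 CPM in shSrsf3 -PDGF-AA samples. Stimulated samples had 77.8, 70.1, and 76.7 CPM in scramble and 80.5, 78.9, and 82.1 CPM in shSrsf3 samples. shSrsf3 samples were higher without overlap in both conditions, with log2 fold changes of 0.18 (SE 0.0504, adjusted p = 0.00983) and 0.10 (SE 0.0506, adjusted p = 0.117). The call in unstimulated cells was lost without scramble -PDGF-AA replicate 1 (0.14, adjusted p = 0.0507). It was also lost without the 3 libraries of low mapping (0.10, adjusted p = 0.112), a fit with replicate 3 (76.6 CPM) as the sole control sample and the spread taken from the other groups. *Bax* transcripts share 8.51% of their 31-base sequences with other genes.

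*Bbc3* encodes Puma, which binds the antiapoptotic Bcl-2 proteins (chromosome 7, 16042318 to 16052130). It had 13.6, 12.8, and 13.7 CPM in scramble and 10.8, 10.5, and 9.23 CPM in shSrsf3 -PDGF-AA samples. The +PDGF-AA samples had 10.8, 12.5, and 10.9 CPM in scramble and 11.9, 10.96, and 11.9 CPM in shSrsf3 samples. The lines were apart without ligand only. The log2 fold change was -0.39 (SE 0.0728, adjusted p = 7.05e-04) in unstimulated and 0.02 (SE 0.0747, adjusted p = 0.831) in stimulated cells. The difference between these 2 effects is the interaction given with the response to the ligand.

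*Phlda3*, an inhibitor of Akt at the membrane (chromosome 1, 135693809 to 135697686), had 110.2, 109, and 114 CPM in scramble and 104, 103, and 103 CPM in shSrsf3 -PDGF-AA samples. In +PDGF-AA samples the values were 114, 107, and 109 CPM in scramble and 102, 99.0, and 106 CPM in shSrsf3 samples. The log2 fold change was -0.11 in both comparisons (SE 0.0368 and 0.0369, adjusted p = 0.0292 and 0.0320), and the level decreased by 7.14% without and decreased by 7.18% with ligand. Over 20 alternatives, the fit without the 3 libraries of low mapping included, the value without ligand was between -0.14 and -0.08. Of the 20 alternatives, 12 and 14 kept the call, which makes *Phlda3* the least stable of the calls that were made in both conditions.

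*Sesn2*, the gene of sestrin 2, which restrains mTORC1 and responds to nutrient and oxidative stress (chromosome 4, 132219335 to 132237815), had 47.3, 48.9, and 52.5 CPM in scramble and 51.9, 48.5, and 46.2 CPM in shSrsf3 -PDGF-AA samples. After stimulation the values were 51.8, 50.1, and 49.2 CPM in scramble and 49.5, 52.0, and 49.1 CPM in shSrsf3 samples. All groups overlapped, and the log2 fold change was -0.02 (95% interval -0.13 to 0.09, adjusted p = 0.770) without and 0.00 (-0.11 to 0.11, adjusted p = 0.971) with ligand. *Sesn2* had the narrowest range of any member, with a ratio of 1.14 between its highest and lowest sample, while *Trp53inp1* had the widest at 2.41.

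**Figure D2:**
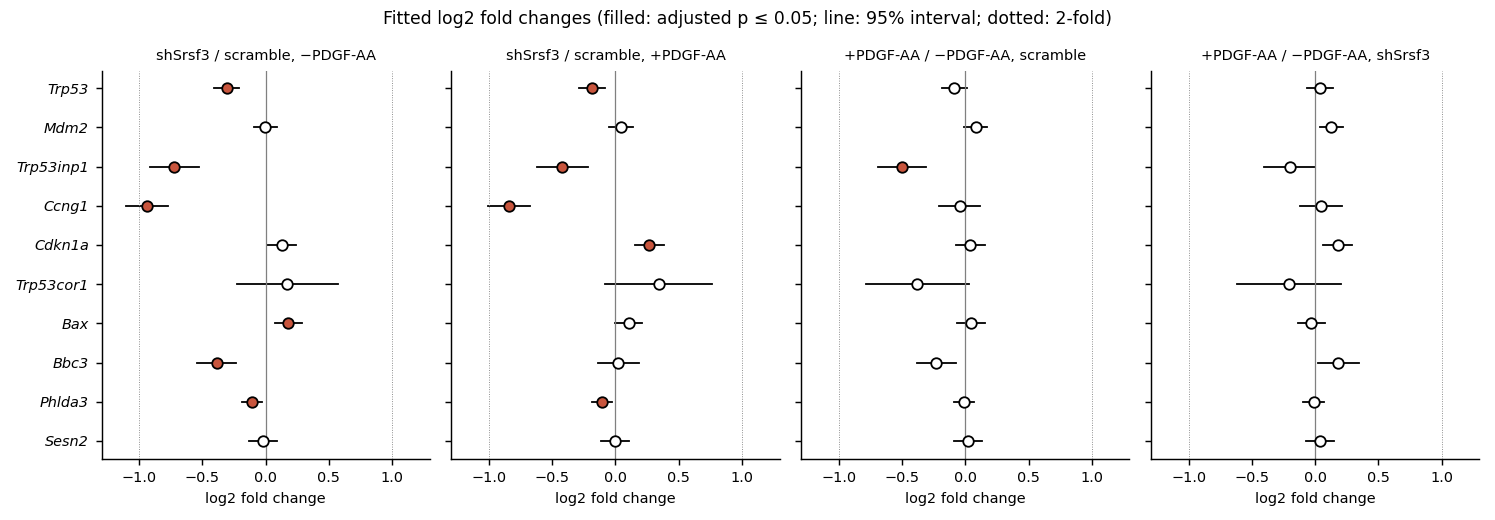
Fitted log2 fold changes of the 10 members (rows) in the 4 comparisons (panels) with 95% intervals as lines. Filled points have an adjusted p of 0.05 or less and dotted lines mark a 2-fold change. *Ccng1* and *Trp53inp1* lie left of 0 in both Srsf3 comparisons, and *Trp53inp1* is the only filled point in the ligand panels.

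To compare levels between genes, CPM were divided by the length of the longest transcript annotated in GENCODE M39 in kb. In scramble -PDGF-AA samples, the level per kb was 66.0 for *Bax* and 60.9 for *Ccng1*, whose samples overlapped, followed by 48.4 for *Phlda3*, 43.3 for *Cdkn1a*, 38.9 for *Trp53*, 29.5 for *Mdm2*, 11.0 for *Sesn2*, 7.05 for *Trp53inp1*, 4.98 for *Bbc3*, and 0.627 for *Trp53cor1*, with no overlap between neighbors. In shSrsf3 -PDGF-AA samples, *Ccng1* took the fourth place at 31.8, where its samples overlapped those of *Trp53* (31.4), and *Cdkn1a* took the second at 47.4. With the summed length of all exons in place of the longest transcript, *Ccng1* (50.4), *Phlda3* (43.0), and *Bax* (39.1) led the order in scramble -PDGF-AA samples, so the rank of *Bax* depends on the length used. The levels depend on it as well, with *Mdm2* then at 13.0 beside *Sesn2* at 10.9.

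PDGF-AA-dependent differences were few. In scramble cells, 1 of the 10 members changed upon ligand stimulation, *Trp53inp1*, against 4.04% of all genes, 2.00% higher and 2.04% lower. It fell from 44.2 ± 6.37 to 31.3 ± 2.27 CPM (SD, n = 3), a log2 fold change of -0.50 (SE 0.0881, adjusted p = 0.00558). Without the 3 libraries of low mapping it was -0.67, from 1 unstimulated sample, the highest of its group at 51.6 CPM, and 2 stimulated samples. In shSrsf3 cells, 0 of the 10 were called by edgeR, and 0 by DESeq2 or limma-voom, against 0.565% of all genes. An unadjusted p under 0.05 was reached by 4 members, *Cdkn1a*, *Mdm2*, *Bbc3*, and *Trp53inp1*, and by 9.44% of all genes in edgeR's test. No member changed 2-fold, as 0.200% and 0.0399% of all genes did. *Trp53inp1* went from 26.9 ± 1.14 to 23.4 ± 2.05 CPM (SD, n = 3; -0.20, SE 0.0938, adjusted p = 0.521), and *Cdkn1a* went from 194 ± 5.05 to 219.6 ± 19.5 CPM (SD, n = 3; 0.18, SE 0.0535, adjusted p = 0.233). The *Cdkn1a* value was 0.10 to 0.22 over the samples left out in turn, and +PDGF-AA replicate 3 was the highest sample at 242 CPM.

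Samples with and without ligand did not overlap for 4 members in scramble cells, *Mdm2*, *Trp53inp1*, *Bbc3*, and *Trp53cor1*, against 18.8% of all genes. In shSrsf3 cells they did not overlap for 4 members either, *Mdm2*, *Trp53inp1*, *Bbc3*, and *Cdkn1a*, against 18% of all genes (2708 of 15037). *Mdm2* was higher with ligand in both, by 0.08 (95% interval -0.01 to 0.17, adjusted p = 0.347) in scramble and 0.13 (0.03 to 0.22, adjusted p = 0.299) in shSrsf3 cells on the log2 scale. The shSrsf3 value was 0.08 to 0.16 over the samples left out in turn, and +PDGF-AA replicate 3 was the highest sample at 116 CPM. *Trp53cor1* differed by -0.38 (-0.79 to 0.03, adjusted p = 0.320) and -0.21 (-0.63 to 0.20, adjusted p = 0.815). For *Trp53*, *Ccng1*, *Bax*, *Phlda3*, and *Sesn2* the difference was between -0.09 (*Trp53* in scramble cells) and 0.05 (*Ccng1* in shSrsf3 cells).

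*Bbc3* differed in opposite directions in the lines upon stimulation, by -0.23 (SE 0.0721, adjusted p = 0.09997) in scramble and 0.18 (SE 0.0754, adjusted p = 0.456) in shSrsf3 cells. The interaction, in which the response of scramble cells is subtracted from that of shSrsf3 cells, was 0.41 (SE 0.104), with an unadjusted p of 0.00158 from edgeR's test and an adjusted p of 0.576. It was 0.30 for *Trp53inp1* (SE 0.129, unadjusted p = 0.0359 from edgeR's test, adjusted p = 0.874). No interaction of a member passed the threshold with edgeR, DESeq2, or limma-voom. In edgeR's test 2 of all 15037 genes (0.0133%) did, 1 of them with a 2-fold difference (0.00665%), while 2 members and 5.54% of all genes had an unadjusted p under 0.05 in edgeR's test. That *Bbc3* differed between the lines without ligand only, and *Trp53inp1* fell upon stimulation in scramble cells only, was therefore not established as a difference between the conditions or lines.

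The wider pathway was described with 7 further lists by role, which hold 81 genes, 80 of them tested, with *Ppm1d* in 2 lists. Their counts are set beside the same background shares of called genes, 45.9% without and 41.0% with ligand. Of 18 tested regulators of p53, 3 were higher and 2 lower in shSrsf3 cells in each comparison, which is below those shares. Among them, the acetyltransferase gene *Kat5* was lower (-0.23 and -0.22 without and with ligand, log2) and the checkpoint kinase gene *Chek1* higher (0.21 and 0.28). *Mdm4*, the partner of Mdm2, was at -0.01 and -0.07 (adjusted p = 0.940 and 0.529).

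Of 12 other targets in arrest and feedback, 6 were higher and 5 lower without ligand, and 5 were higher and 4 lower with ligand. *Gadd45g* (-0.87 and -0.92) and *Rprm* (-0.77 and -0.53), which restrain the G2/M transition, were lower. *Btg2*, an antiproliferative gene that is also an immediate early gene, was higher (0.73 and 0.55), as was *Psrc1*, which encodes a spindle protein (0.65 and 0.74). Opposite directions within the list gave medians of 0.15 and 0.07.

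The 13 other apoptosis targets had 2 higher and 3 lower without ligand, and 2 higher and 2 lower with ligand. The death receptor gene *Fas* (-0.48 and -0.77) and the antiapoptotic *Triap1* (-0.35 and -0.34) were lower, while the death receptor gene *Tnfrsf10b* (0.39 and 0.34) and *Ei24* (0.29 and 0.28) were higher. Of 8 DNA repair targets, 1 was higher and 2 lower in each comparison. *Polk*, a translesion polymerase gene, rose by 0.58 and 0.62, whereas *Xpc*, which encodes a damage sensor of nucleotide excision repair, was at -0.49 and -0.33 and *Fancc*, of the Fanconi anemia pathway, at -0.28 and -0.39.

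Targets of metabolism, antioxidant defense, and autophagy numbered 12, with 3 higher and 4 lower without ligand and 4 higher and 3 lower with it. *Ddit4*, an inhibitor of mTORC1 signaling (-0.54 and -0.44), and *Tigar*, which lowers glycolysis (-0.32 and -0.33), were lower, and *Cpt1c* (0.34 and 0.41) and the adenylate kinase gene *Ak1* (0.17 and 0.24) were higher.

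Cell cycle genes that p53 represses by way of p21 and the DREAM complex were called in 1 direction only. This list was drawn up with earlier results of these data known, so its counts are a description and not a test. Of 13, 11 were higher and 0 lower in shSrsf3 cells without ligand, with a median of 0.46, and 12 were higher and 0 lower with ligand, with a median of 0.54, beside 22.2% and 20.3% of all genes that were higher. The mitotic cyclin gene *Ccnb2* rose by 0.90 and 1.07 and the phosphatase gene *Cdc25c* by 0.66 and 0.99. *Cdkn1a*, as given above, was called higher in shSrsf3 cells with ligand (0.27) but not without it (0.13, adjusted p = 0.0639). Of 5 other CDK inhibitor genes, 0 were higher and 3 lower without ligand, and 1 was higher and 2 lower with ligand. *Cdkn1c*, which encodes p57, had the largest decrease of the genes listed in both comparisons (-1.14 and -1.21), and *Cdkn2b* was at -0.13 and -0.12.

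Upon ligand stimulation, 4.04% of all genes were called in scramble and 0.565% in shSrsf3 cells, with 2.00% and 0.426% higher. Of the 12 arrest and feedback targets, 3 were higher in each line. They were *Plk3* (0.85), *Btg2* (0.61), and *Plk2* (0.22) in scramble and *Plk3* (0.52), *Btg2* (0.43), and *Gadd45b* (0.37) in shSrsf3 cells. In scramble cells, *Xpc* (-0.23), *Cdkn1b* (-0.32), and *Cdkn2d* (-0.33) were lower and *Prkab1* (0.21) was higher. The remaining lists had no call upon stimulation. These genes were named because they are all the calls of the lists, after their values were seen.

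**Figure D3:**
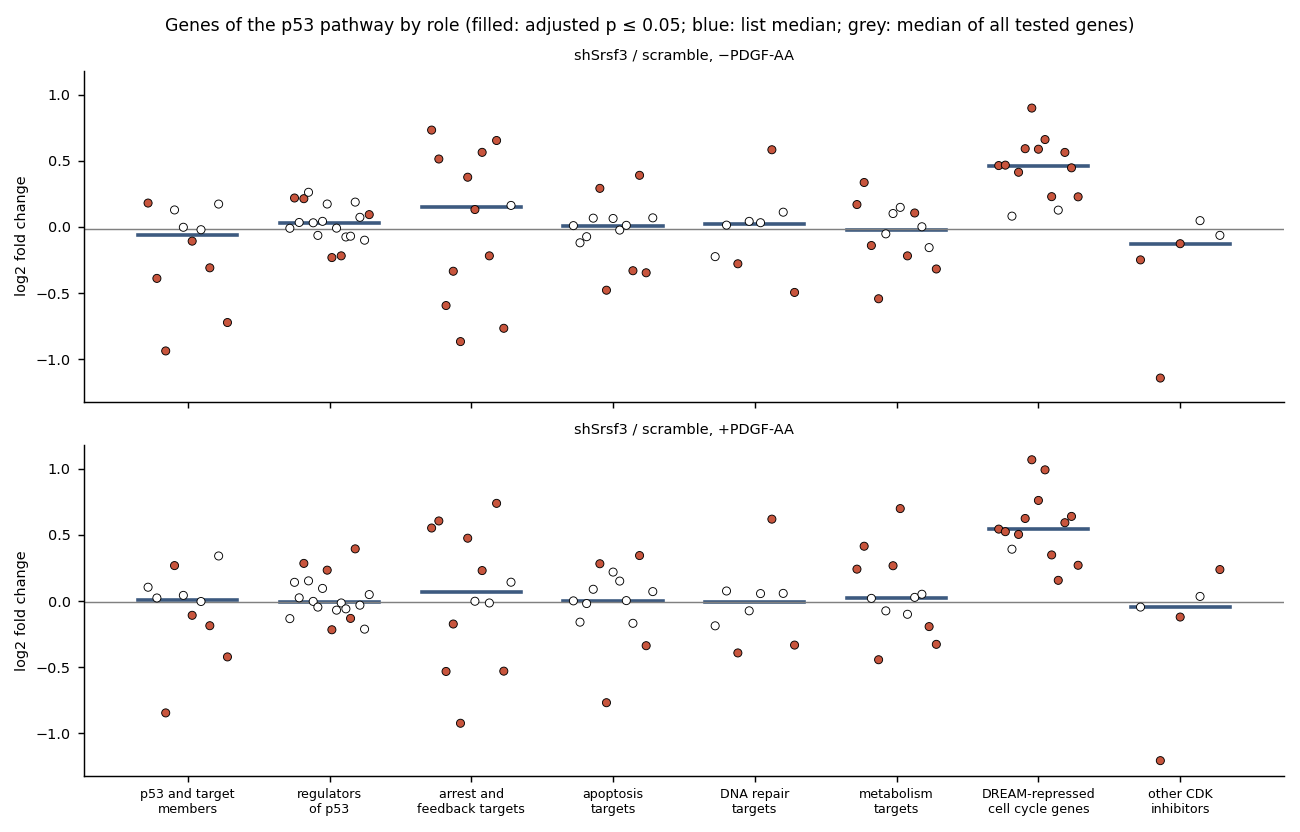
Log2 fold changes (shSrsf3 against scramble) of the members and of the 7 other lists, without ligand (top) and with ligand (bottom). Each point is a gene, filled where the adjusted p is 0.05 or less, blue bars are list medians, and the grey line is the median of all tested genes. The cell cycle list lies above 0 in both panels and the other lists spread to both sides.

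*Cdkn1a* and *Trp53cor1* neighbor *Srsf3*, the knockdown target, with the annotated starts of *Cdkn1a* and *Srsf3* 58.6 kb apart. Of 30 genes within 250 kb of either gene, 12 were tested. *Pi16* was higher in both comparisons (0.55 and 0.54), and *BC004004* was lower (-0.49 and -0.43), besides *Srsf3* itself. *Stk38* on the other side of *Srsf3* was called with ligand (0.18, adjusted p = 0.00103) but not without it (0.05, adjusted p = 0.273). The called genes around the locus thus differed in both directions.

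**Figure D4:**
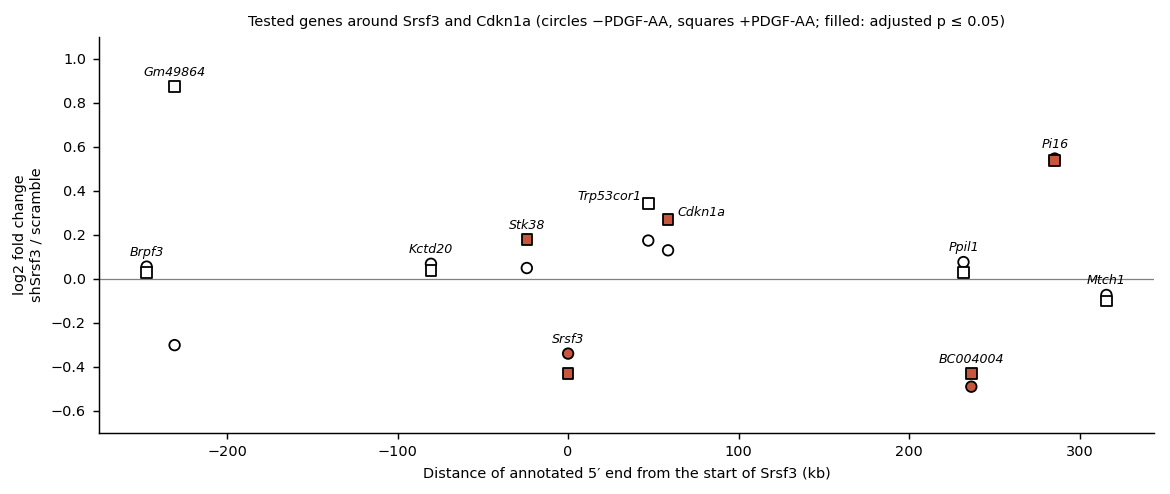
Log2 fold changes (shSrsf3 against scramble) of tested genes around *Srsf3* and *Cdkn1a* by distance of their annotated 5′ end from the start of *Srsf3*, in kb, with circles for -PDGF-AA and squares for +PDGF-AA. Filled symbols have an adjusted p of 0.05 or less, and 1 tested gene with 40 counts in all samples is not drawn. *Srsf3* and *BC004004* are filled and below 0 in both conditions, *Pi16* is filled and above 0 in both, and *Stk38* and *Cdkn1a* are filled with ligand only.

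The genes whose log2 CPM followed that of *Trp53* most closely over the 12 samples were *Pcdhb13* (Pearson r = 0.979), *Map6* (0.977), and *Tmem184c* (0.976), all lower in shSrsf3 cells in both comparisons. *Pcdhb13* was near the floor, with 7 to 37 counts per sample. Those most like *Cdkn1a* were *Smc2* (0.929), *Ackr3* (0.929), and *Ermp1* (0.925), all higher in both. The 12 samples share 2 lines and their library differences, and these correlations describe the samples only.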

How the data were processed

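RNA-seq of 12 iMEPM samples was examined, with 3 biological replicates in each of 4 groups assigned from the sample labels. The authors trimmed reads, quantified transcripts with Salmon 1.4.0 against GENCODE M26 on GRCm39, and summarized them per gene with tximport. The deposited values are expected counts per gene, in which Salmon's estimates of read pairs are summed without scaling to library size, and 16.3% of the values were not whole (tolerance 1e-06). How tximport scaled them is not given in the sources used here, and a change in isoform length between groups can enter such counts.

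Expected counts were rounded, filtered with filterByExpr (minimum count 10) and TMM-normalized. edgeR 4.0.16 fitted 1 quasi-likelihood model of 4 group means to 15037 genes and 12 samples, with Benjamini-Hochberg adjustment over these genes for each comparison. The threshold for a call was an adjusted p of 0.05 with no fold minimum, and the study's 2-fold minimum was an alternative. Tests were two-sided, intervals are 95%, and standard errors come from the fold change and F statistic. With 3 samples against 3, an exact permutation test of a single value cannot go below 0.1. The method was tested on simulated data for the Srsf3 comparison without ligand only. Far fewer genes were changed there than were called here, so it does not give the error rate in these data. The sources used here do not say whether same-numbered samples were handled together, and the main model did not pair them. Alternatives used DESeq2 1.42.0, limma 3.58.1, other scaling, no filter, thinning to the smallest library, only the 2 groups compared, a replicate block, and left-out samples.

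Positions and transcript lengths were looked up by symbol in GENCODE M39, which is newer than the authors' annotation but of the same build, GRCm39. All 10 members matched. The members and lists were chosen with earlier results of these data known. All members were named. From each other list, up to 4 genes were named, the 2 with the largest rise and the 2 with the largest fall without ligand among those called in the same direction in both Srsf3 comparisons. *Srsf3*, *Cdkn2a*, *Trp63*, *Trp73*, the 3 genes most like *Trp53* and *Cdkn1a*, and neighbors called in both comparisons were also named. *Mdm4*, *Stk38*, the differences of *Pdgfra* and *Vim* between the lines, and the genes called upon stimulation were added after their values were seen.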

Additional observations from a re-analysis of the deposited data

Results flagged for a closer look

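*Bbc3* stood out because its samples moved in opposite directions upon ligand stimulation. All 3 stimulated scramble samples were below all 3 unstimulated ones (log2 fold change -0.23), and all 3 stimulated shSrsf3 samples were above all 3 unstimulated ones (0.18). The difference itself, 0.41, had an adjusted p of 0.576 from edgeR's test.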

How the results depend on the processing

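The calls of *Trp53*, *Ccng1*, and *Trp53inp1* in both Srsf3 comparisons, of *Bbc3* without and *Cdkn1a* with ligand, and of *Trp53inp1* in stimulated scramble cells held in all 20 alternatives of each. With the replicate number as a block (replicate block), all 50 log2 fold changes of members kept their direction and side of the threshold. The deviations of same-numbered samples from their group means had a median r of -0.00103 over 18 pairs (highest 0.201). With 3 samples in each group, this cannot exclude a pairing.

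With a 2-fold minimum, 0 members were called in every comparison. Without the filter for low counts, 2 members were called in shSrsf3 cells upon stimulation (*Cdkn1a*, adjusted p = 0.0343, and *Trp53inp1*, 0.0296) and 2 for the interaction (*Bbc3*, 0.0327, and *Trp53inp1*, 0.0382). The number of called members over the samples left out in turn was 4 to 7 in shSrsf3 against scramble without ligand, 4 to 5 with ligand, 1 to 2 in scramble cells upon stimulation, and 0 in the other comparisons. *Bbc3* was the second call in scramble cells, without +PDGF-AA replicate 2 (-0.30, adjusted p = 0.0327), and *Trp53cor1* was called with ligand without shSrsf3 +PDGF-AA replicate 1 (0.53, adjusted p = 0.0477). Over all genes, interaction calls numbered 2 in the main model, 26 with DESeq2, 218 without the filter, and 16 without the 3 libraries of low mapping, and calls upon stimulation of shSrsf3 cells numbered 85, 210, 374, and 231.

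Changes of sign, for which the cause was not tested, occurred only in values that were not called. *Bbc3* with ligand was -0.0275 after thinning. *Mdm2* without ligand was 0.00587 with DESeq2, 0.00601 with median-of-ratios scaling, 0.00529 with only the 2 groups, and 0.0102 without the 3 libraries of low mapping. *Sesn2* with ligand was 0.00294 after thinning, 0.00261 with DESeq2, 0.00263 with median-of-ratios scaling, and 0.000973 with only the 2 groups, and upon stimulation of scramble cells it was -0.0583 without the 3 libraries. The interaction of *Phlda3* was 0.00132 after thinning and 0.0159 without the 3 libraries.

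Values that were not called also moved without the 3 libraries of low mapping, with 1 unstimulated scramble sample left. *Sesn2* between the lines without ligand was -0.10. With ligand, *Bax* was 0.06 and *Bbc3* 0.09. Upon stimulation of scramble cells, *Ccng1* was -0.10, *Trp53* -0.04, *Phlda3* -0.03, *Cdkn1a* 0.02, and *Bax* 0.01. The interaction was 0.47 for *Trp53inp1*. *Bbc3* upon stimulation of scramble cells was between -0.34 and -0.18 over 20 alternatives, this fit included. Its interaction was between 0.31 and 0.51 over 19 alternatives, this fit included.

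Over the samples left out in turn, the ranges that crossed 0 were as follows. Between the lines without ligand, *Mdm2* was at -0.0173 to 0.0273 and *Sesn2* at -0.0667 to 0.0372. With ligand, *Bbc3* was at -0.0128 to 0.0922, *Mdm2* at -0.00357 to 0.0732, and *Sesn2* at -0.0299 to 0.0171. In scramble cells upon stimulation, *Ccng1* was at -0.0805 to 0.0137, *Phlda3* at -0.0373 to 0.0143, and *Sesn2* at -0.00904 to 0.0764. In shSrsf3 cells, *Ccng1* was at -0.0721 to 0.113, *Phlda3* at -0.0383 to 0.00777, and *Trp53* at -0.00571 to 0.0683. For the interaction, *Ccng1* was at -0.0317 to 0.157, *Mdm2* at -0.00699 to 0.0698, *Phlda3* at -0.0283 to 0.0222, *Sesn2* at -0.0378 to 0.0637, and *Trp53cor1* at -0.0288 to 0.349.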
